A study of Homo sapiens with 6 samples.

Results

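The genes described here are 10 markers of enterocytes and other columnar epithelial cells: *VIL1*, *LGALS4*, *FABP1*, *CEACAM5*, *CEACAM6*, *TSPAN8*, *PHGR1*, *ANPEP*, *DPP4* and *OLFM4*. They were picked by symbol, as known markers, from the 60480 gene identifiers of an RNA-seq count table. The libraries came from OE-19, an established human cell line of adenocarcinoma of the esophagogastric junction (AEG), grown in RPMI1640 medium with fetal bovine serum. The study asked what changes in the transcriptome when *IGF2BP3*, which encodes an RNA-binding protein, is knocked down. There were 3 libraries labelled shControl (control) and 3 labelled shIGF2BP3 (IGF2BP3 KD), all from polyA RNA prepared with a directional kit. The control libraries are also labelled Puro, in their descriptions and count columns, and the labels do not explain this name. Which of the study's hairpins was used in these libraries is not given in the sources used here. All values come from 1 cell line, and nothing in the labels says that the replicates were separate cultures, so p-values measure only the spread between these libraries, which may be technical.

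Enterocytes are the absorptive columnar cells of the intestine. As they leave the crypt and mature, they build a brush border of microvilli bundled by villin and other actin-binding proteins, and the microvillar membrane carries peptidases and transporters. Columnar cells of the stomach and of metaplastic esophagus share a part of this program, including surface glycoproteins such as the CEACAM family.

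The knockdown was visible in every library, since *IGF2BP3* had 7416, 7363 and 6532 counts in the control and 777, 792 and 794 in the IGF2BP3 KD libraries (log2 fold change -3.03, SE 0.06, adjusted p = 3.1e-10). Of its exonic bases, 1521 also belong to *MALSU1*, on the other strand, which had 2187, 1999 and 1608 counts in the control and 943, 1161 and 1216 after knockdown (log2 fold change -0.67, SE 0.07, adjusted p = 8.6e-05). Total counts lay between 53453621 and 70026203 per library. Levels are given as CPM, the counts of a gene per 1000000 counts of its library, scaled with TMM factors that correct for library composition. Epithelial markers were abundant, with *KRT8* at a mean of 2627 CPM in the control and *CDH1* at 484. Of the intestinal transcription factors, *CDX1* had no count in any library, and *CDX2* rose from 12.6 to 17.7 CPM (log2 fold change 0.50, SE 0.09, adjusted p = 0.00247). The summed level of 16 squamous markers was 52.2 to 55.3 CPM in the control and 70.7 to 74.2 CPM in the IGF2BP3 KD libraries. Of the 14 tested, 3 were higher (*COL17A1*, *KRT4* and *KRT6A*, 21.4%, beside 9.87% of all tested genes). There were 0 lower, beside 10.6% of all tested genes. *KRT5* and *TP63* stood at 0.0114 and 0.194 CPM in the control. *COL17A1* alone went from 31.1 to 47.6 CPM and made up most of the difference in this sum, while *KRT15* had 4.71 and 3.60 CPM and *SOX2* 6.18 and 6.16 CPM. The summed level of 17 stromal, endothelial and immune markers was 2527 to 2756 CPM in the control and 2574 to 2645 CPM after knockdown. *LYZ*, which secretory epithelial cells also express, made up most of this sum at 2548 CPM in the control. Of the 6 tested, 2 were higher (*COL1A1* and *CD68*, 33.3%, beside 9.87% of all tested genes) and 0 lower (beside 10.6%). *CD3E*, *MS4A1*, *LUM* and *COL1A2* had no count in any library. The part of these genes in the results below was not tested. A gene is called higher or lower where the adjusted p of edgeR's quasi-likelihood test was under 0.05.

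Of the 10 markers, 9 passed the filter on low counts and were tested, 2 were lower in IGF2BP3 KD cells (*CEACAM5* and *CEACAM6*), 3 were higher (*TSPAN8*, *PHGR1* and *LGALS4*) and 4 were not called (*VIL1*, *DPP4*, *ANPEP* and *OLFM4*). Among all 19778 tested genes, 10.6% were called lower and 9.87% higher, 20.4% in all. The IGF2BP3 KD libraries lay below all control libraries for 2 markers and above them for 3, where 17.8% and 18.0% of all tested genes did so. The median log2 fold change was -0.01 over the 9 tested markers and 0.01 over all tested genes. The markers moved in both directions and by little, with called changes between -0.26 and 0.30 on the log2 scale. In a bulk library, fewer cells of a type and less RNA per cell cannot be told apart. Together the 10 genes took 0.389%, 0.386% and 0.387% of the counts in the control libraries and 0.406%, 0.410% and 0.409% in the IGF2BP3 KD libraries.

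**Figure D1:**
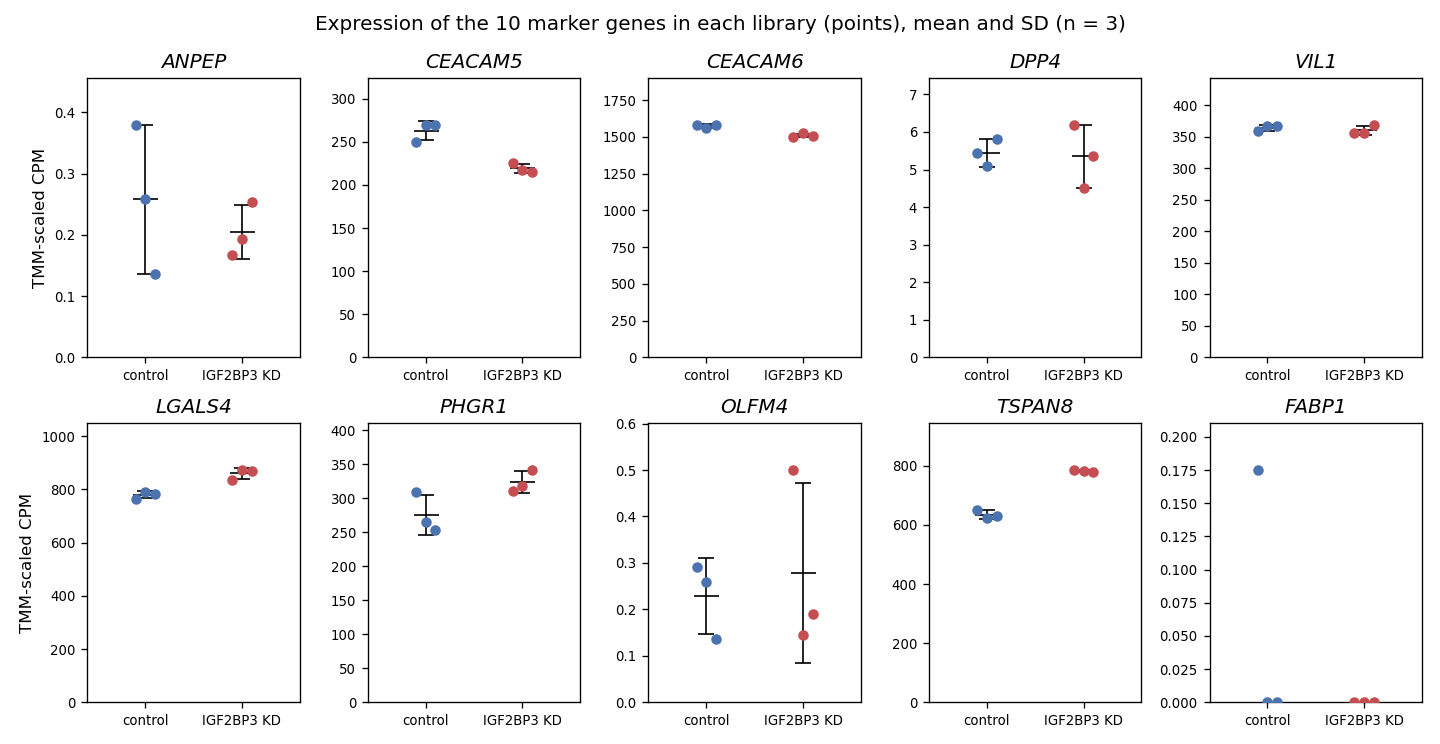
Level of each of the 10 marker genes (y axes, TMM-scaled CPM on a linear scale from 0, a separate axis per gene) in the 3 control libraries (blue) and the 3 IGF2BP3 KD libraries (red), with the mean and SD as lines where every library has a count. The groups do not overlap for *CEACAM5* and *CEACAM6*, which are lower in the red libraries, or for *TSPAN8*, *LGALS4* and *PHGR1*, which are higher, and *FABP1* has counts in 1 control library only.

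To compare levels between genes, CPM was divided by the length of each gene's canonical transcript in GENCODE v44. On this scale of CPM per kilobase, 4 markers lay above the 99th percentile of 13990 tested coding genes, ranked by the control mean. In the control they were *LGALS4* at 695 ± 11.8 (SD, n = 3), *PHGR1* at 633 ± 67.6, *CEACAM6* at 607 ± 4.23 and *TSPAN8* at 561 ± 12.9 CPM per kilobase. Next came *CEACAM5* at 75.1 ± 3.16 and *VIL1* at 56.0 ± 0.747, with *DPP4* far lower at 1.52 ± 0.101 CPM per kilobase. *OLFM4* and *ANPEP* were lowest among those tested, at 0.0805 ± 0.0288 and 0.0705 ± 0.0332 CPM per kilobase. Neighbours in this order were not always apart. *LGALS4* exceeded *PHGR1* in 2 of 3 control libraries and 2 of 3 IGF2BP3 KD libraries, and *OLFM4* exceeded *ANPEP* in 2 and 1 of 3. *CEACAM6* exceeded *TSPAN8* in all 3 control libraries and in 0 of 3 IGF2BP3 KD libraries, where *TSPAN8* stood at 692 ± 2.87 and *CEACAM6* at 582 ± 5.02 CPM per kilobase. The genes of surface glycoproteins, galectin-4, *PHGR1* and villin were thus well expressed in OE-19, while both brush border peptidases, the fatty acid binding protein and the crypt marker were low or near 0.

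Both CEACAM genes encode glycoproteins of the immunoglobulin superfamily that are anchored to the outer face of the plasma membrane by a lipid and act in cell adhesion. *CEACAM5* encodes carcinoembryonic antigen, used in the clinic as a serum marker of gastrointestinal tumors. *CEACAM5* (ENSG00000105388, chromosome 19, 41708585 to 41730433 on hg38) and *CEACAM6* (ENSG00000086548, chromosome 19, 41750977 to 41772211) lie on the plus strand, 20543 bases apart. The promoters of the pair are shown because the genes are adjacent, alike in sequence and the only markers called lower. The stretches run from 160 to 40 bases before the start of the RefSeq transcript (GRCh38.p14, chr19:41708466-41708586 and chr19:41755370-41755490), with the E-box CACGTG in capitals. RefSeq and GENCODE place the starts of these genes differently, so the *CEACAM6* stretch lies inside the GENCODE span of the gene, and the *CEACAM5* stretch ends just inside its GENCODE start.
CEACAM5: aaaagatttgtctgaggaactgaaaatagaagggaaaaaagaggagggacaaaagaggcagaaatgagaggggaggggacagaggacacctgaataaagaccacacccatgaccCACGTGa
CEACAM6: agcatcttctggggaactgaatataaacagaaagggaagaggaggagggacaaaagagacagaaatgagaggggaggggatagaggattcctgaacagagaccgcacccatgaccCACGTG

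In a global alignment of these stretches, 100 of 117 aligned positions were identical (85.5%), and over the full 250 bases before the start 190 of 242 were (78.5%). The E-box, a palindromic motif read by basic helix-loop-helix factors, began 46 bases before the start of *CEACAM5* and 45 bases before that of *CEACAM6*. It was present in the same 250-base window of 6.34% of 35116 RefSeq promoters, and among the other markers with a promoter in the table it was present in *DPP4*, 215 bases before the start. A match to these letters is a description of the sequence and not a measured site.

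*CEACAM5* had 250, 270 and 269 CPM in the control libraries and 225, 218 and 215 CPM in the IGF2BP3 KD libraries. Every knockdown library lay below every control library. It fell by 16.6%, from 263 ± 11.1 to 219 ± 5.10 CPM (log2 fold change -0.26, SE 0.04, 95% interval -0.34 to -0.18, adjusted p = 3.4e-04). The size was ordinary for a called gene, as 45.7% of the 2088 genes called lower changed less. The call held in all fits that left out 1 library, with log2 fold changes between -0.30 and -0.25.

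*CEACAM6*, the most abundant marker in CPM, had 1579, 1561 and 1581 CPM in the control libraries and 1499, 1523 and 1504 CPM in the IGF2BP3 KD libraries. The groups did not overlap, but the gap between the lowest control and the highest knockdown library was small beside the level itself. The mean fell by 4.14%, from 1574 ± 11.0 to 1509 ± 13.0 CPM (log2 fold change -0.06, SE 0.02, 95% interval -0.10 to -0.02, adjusted p = 0.0369). Only 0.0958% of the genes called lower changed less. The call was lost without control replicate 3 or any 1 of the IGF2BP3 KD replicates, with adjusted p between 0.0585 and 0.126, and without a filter on low counts (adjusted p = 0.0997).

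The ratio of *CEACAM5* to *CEACAM6* counts, which was chosen after the values were seen and does not depend on library scaling, was 0.158, 0.173 and 0.170 in the control libraries and 0.150, 0.143 and 0.143 in the IGF2BP3 KD libraries. It was lower in every knockdown library, with means of 0.167 ± 0.00762 and 0.145 ± 0.00414, and a two-sided exact permutation test gave p = 0.1, the smallest value that 3 against 3 libraries allow. Reads that fit both paralogs may have been split between them or dropped, as the handling of such reads is not given in the sources used here. Both genes also share exonic bases (139 and 138) with the gene ENSG00000267881 on the same strand, which had 1, 2 and 26 counts in the control and 1, 1 and 29 counts in the IGF2BP3 KD libraries, few beside the CEACAM counts.

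**Figure D2:**
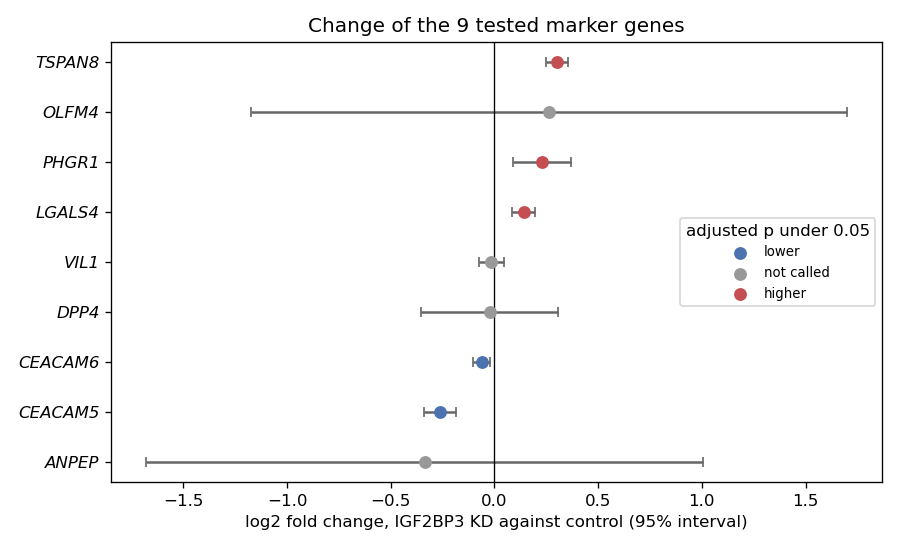
Log2 fold change of IGF2BP3 KD against control (x axis) for the 9 tested marker genes, ordered by log2 fold change, with 95% intervals as bars and the call as color (blue lower, red higher, grey not called). The 5 called genes lie between -0.26 and 0.30 with narrow bars, while the bars of *ANPEP* and *OLFM4*, which rest on few counts, span more than 1 on either side of 0.

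*TSPAN8* (ENSG00000127324, chromosome 12, 71125085 to 71441898, minus strand) encodes a tetraspanin, a membrane protein that organises other surface proteins and is enriched on extracellular vesicles. It showed the largest rise of the called markers, with 651, 623 and 631 CPM in the control libraries and 786, 783 and 780 CPM in the IGF2BP3 KD libraries. The knockdown libraries were nearly level with each other, and all were well above the controls. The mean went from 635 ± 14.6 to 783 ± 3.24 CPM, a rise of 23.3% (log2 fold change 0.30, SE 0.02, 95% interval 0.25 to 0.35, adjusted p = 6.8e-06). Of the 1953 genes called higher, 48.1% changed less. RefSeq gives this gene more than 1 start, and before the downstream start the letters GTTAAT, a core of the binding site of the hepatocyte nuclear factor 1 family, stood at 116, 84 and 52 bases. That word was present in 6.23% of all promoter windows on either strand, and in *FABP1*, *ANPEP* and *OLFM4* among the markers.

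*LGALS4* (ENSG00000171747, chromosome 19, 38801671 to 38812945, minus strand) encodes galectin-4, a lectin of the digestive tract that binds glycans and takes part in apical protein transport. It had 764, 789 and 784 CPM in the control libraries and 835, 873 and 871 CPM in the IGF2BP3 KD libraries, so the groups did not overlap. The mean rose by 10.3%, from 779 ± 13.3 to 860 ± 21.3 CPM (log2 fold change 0.14, SE 0.02, 95% interval 0.09 to 0.20, adjusted p = 0.00195). This was small among called genes, with only 6.25% of those called higher changing less, but the call held in every alternative fit, with adjusted p of at most 0.0174.

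*PHGR1* (ENSG00000233041, chromosome 15, 40351033 to 40356434, plus strand) encodes a short protein rich in proline, histidine and glycine that is known from differentiated cells of the gut epithelium. Its levels were 310, 265 and 254 CPM in the control libraries and 312, 318 and 342 CPM in the IGF2BP3 KD libraries. Control replicate 1 came close to the lowest knockdown library, and the spread relative to the mean was the widest of the 5 called markers in the control. The mean rose by 17.3%, from 276 ± 29.5 to 324 ± 16.0 CPM (log2 fold change 0.23, SE 0.06, 95% interval 0.09 to 0.37, adjusted p = 0.0245). The call was lost without control replicate 2 or 3 or any 1 of the IGF2BP3 KD replicates, with adjusted p between 0.0513 and 0.121 and log2 fold changes between 0.17 and 0.32 over all 6 such fits. It was also lost without a filter on low counts (adjusted p = 0.0926) and in DESeq2 (adjusted p = 0.0638).

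*VIL1* (ENSG00000127831, chromosome 2, 218419121 to 218453295, plus strand) encodes villin, which bundles and severs the actin filaments of microvilli. It had 358, 367 and 367 CPM in the control libraries and 355, 357 and 369 CPM in the IGF2BP3 KD libraries. The groups overlapped, with the highest value in a knockdown library. The means were 364 ± 4.86 and 360 ± 7.35 CPM (log2 fold change -0.01, SE 0.03, adjusted p = 0.78), and the 95% interval of the difference ran from -0.07 to 0.04 on the log2 scale. *VIL1* shares 3045 exonic bases with *USP37* on the opposite strand, a gene with 1704, 1687 and 1762 counts in the control and 847, 1222 and 1062 counts in the IGF2BP3 KD libraries (log2 fold change -0.60, SE 0.10, adjusted p = 0.00172). Whether the counting used strand is not given in the sources used here. *VIL1* itself had 19184 to 25547 counts per library.

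Both brush border peptidases of the set were weakly expressed. *DPP4* (ENSG00000197635, chromosome 2, 161992245 to 162074394, minus strand) encodes dipeptidyl peptidase 4, which trims dipeptides from peptide hormones and dietary peptides. It had 5.43, 5.08 and 5.81 CPM in the control libraries and 6.19, 4.51 and 5.36 CPM in the IGF2BP3 KD libraries. The knockdown group held both the highest and the lowest value. The log2 fold change was -0.02 (SE 0.15, 95% interval -0.35 to 0.31, adjusted p = 0.946), an interval that leaves room for changes as large as those of the called markers. *ANPEP* (ENSG00000166825, chromosome 15, 89784895 to 89815401, minus strand) encodes aminopeptidase N, which removes residues from the amino end of peptides. It had 26, 18 and 8 counts in the control libraries and 9, 12 and 16 counts in the IGF2BP3 KD libraries, with overlapping groups and a log2 fold change of -0.34 (SE 0.61, 95% interval -1.68 to 1.01, adjusted p = 0.774).

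*FABP1* (ENSG00000163586, chromosome 2, 88122982 to 88128062, minus strand) encodes the liver-type fatty acid binding protein that carries fatty acids in enterocytes and hepatocytes. It had 12 counts in control replicate 1 and no count in the other 5 libraries, so it did not pass the filter and was not tested. A count of 0 allows up to 3 counts, or 0.0430 to 0.0555 CPM depending on the library, for counting error only. *OLFM4* (ENSG00000102837, chromosome 13, 53028813 to 53052057, plus strand) encodes olfactomedin 4, a secreted glycoprotein used as a marker of crypt stem cells. It had 20, 18 and 8 counts in the control libraries and 27, 9 and 12 counts in the IGF2BP3 KD libraries. The groups overlapped, and the log2 fold change was 0.26 (SE 0.65, 95% interval -1.17 to 1.70, adjusted p = 0.844).

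The words searched for in 3′ UTRs were chosen with earlier results of these data known, so the shares given here are not independent evidence. Among coding genes, 35.1% of the 1072 whose 3′ UTR holds the letters GATTACT were called lower, and 12.6% of the others. Of the 1328 whose 3′ UTR holds ACACATC, 28.1% were called higher, and 11.4% of the others. The 3′ UTR of the canonical transcript of none of the 10 markers holds GATTACT, a word found in 7.66% of 13998 tested coding genes. ACACATC is present in the 3′ UTR of *DPP4* alone among the markers, and in 9.49% of the coding genes. It is shown in capitals, at base 793 of that 3′ UTR, because it is the single match.
DPP4: ctgagatgtgaACACATCagcttgccctg
*DPP4* was not called, so none of the 5 called markers holds either word in the 3′ UTR of its canonical transcript. The 3′ UTRs of *TSPAN8*, *PHGR1* and *LGALS4* have only 238, 131 and 90 bases, and those of *CEACAM5* and *CEACAM6* have 1286 and 1450. Both words are uncommon and most of these 3′ UTRs are short, so no conclusion is drawn from the absence. Outside the 3′ UTR, *CEACAM5* holds ACACATC 1 time, and *DPP4* and *OLFM4* each hold GATTACT 1 time. The shorter word TGGAC, which contains GGAC, a common context of adenosine methylation, is found in 61.1% of the 3′ UTRs. It has 4 matches in that of *CEACAM6*, 3 in *VIL1*, 2 in *DPP4* and 1 in *ANPEP*, and none in those of the other markers. Of coding genes with it, 15.6% were lower and 14.0% higher, and of those without it 12.4% and 11.4%.

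**Figure D3:**
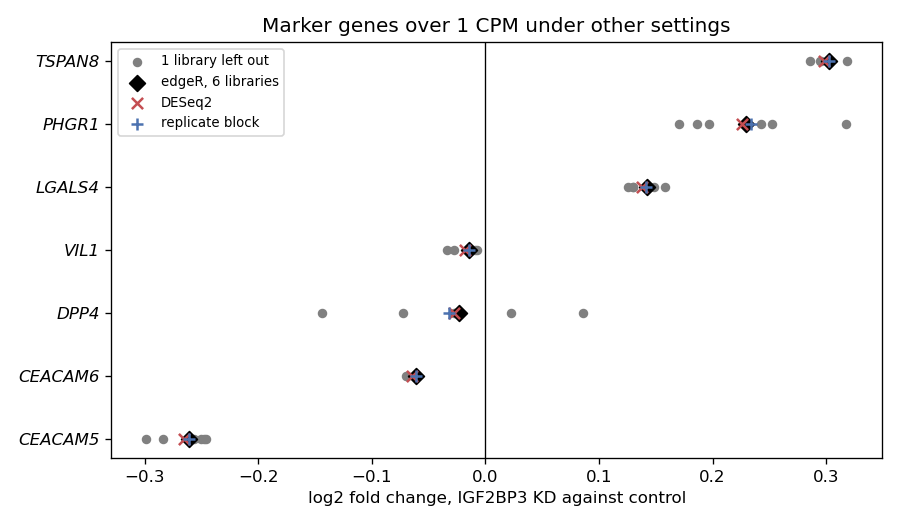
Log2 fold change (x axis) of the 7 marker genes with a mean over 1 CPM in edgeR with all 6 libraries (diamond), in fits that leave out 1 library (grey points), in DESeq2 (cross) and with a replicate block (plus). Only *DPP4* has points on both sides of 0, and the points of *PHGR1* spread from 0.17 to 0.32.

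Other genes of the same biology were counted in lists compiled by hand from gene function, with the markers themselves left out. The lists were chosen with earlier results of these data known, so the counts from them are not independent evidence. The shares of all tested genes given beside the lists include non-coding genes. They were also not matched to the lists for expression level, on which the precision of a fold change depends. All 23 genes of the scaffold list, for example, averaged 1 CPM or more. Coding genes were called more often, with 11.4% higher and 12.4% lower without TGGAC in the 3′ UTR, and 14.0% and 15.6% with it. The scaffold of the brush border, which holds actin bundlers, myosins and the intermicrovillar adhesion complex, had 9 of 23 tested genes higher (39.1%, beside 9.87% of all tested genes) and 1 lower (4.35%, beside 10.6%). Its median log2 fold change was 0.15. The 1 lower call was lost without control replicate 2 or IGF2BP3 KD replicate 2, which left 0. *ESPN*, which encodes the actin bundler espin, had the largest rise, from 3.44 to 6.19 CPM (log2 fold change 0.85, SE 0.20, adjusted p = 0.0104). *SLC9A3R1*, whose product links apical membrane proteins to ezrin, rose from 244 to 301 CPM (log2 fold change 0.31, SE 0.03), and *CLRN3*, a clarin family gene of the gut epithelium, rose by 0.29 (SE 0.05). The gene called lower was *BAIAP2L1*, which encodes an actin regulator that bends membranes, from 147 to 131 CPM (log2 fold change -0.17, SE 0.04, adjusted p = 0.0172). *VIL1* itself was near 0 on this scale, as given above.

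Of 27 brush border enzymes and transporters, 17 were tested, 4 were higher (23.5%, beside 9.87% of all tested genes) and 2 lower (11.8%, near the overall 10.6%). The median log2 fold change was 0.14. The lower genes numbered 1 without control replicate 2, IGF2BP3 KD replicate 1 or IGF2BP3 KD replicate 2. The amino acid transporter gene *SLC6A19* rose from 5.39 to 9.89 CPM (log2 fold change 0.88, SE 0.12, adjusted p = 4.8e-04). *SLC15A1*, which encodes the peptide transporter of the small intestine, rose from 9.77 to 14.9 CPM (0.61, SE 0.09), and *ACE*, which encodes angiotensin-converting enzyme, a peptidase, rose from 36.0 to 47.1 CPM (0.39, SE 0.05). *CUBN*, the gene of the cobalamin receptor cubilin, fell from 2.16 to 1.24 CPM (log2 fold change -0.80, SE 0.21, adjusted p = 0.0208). The other called genes were *GGT1*, which was higher, and *SLC3A1*, which was lower and averaged under 1 CPM. Most of these genes were, like *DPP4*, expressed at low level.

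Among 22 genes of lipid absorption and fatty acid binding, the group to which *FABP1* belongs by function, 13 were tested, 3 were higher (23.1%, beside 9.87% of all tested genes) and 1 was lower (7.69%, beside 10.6%). The median change was 0.03 on the log2 scale. The 1 lower call was lost without control replicate 3 or IGF2BP3 KD replicate 1, which left 0. The higher genes were *PPARA*, a nuclear receptor for fatty acids (0.46, SE 0.05, adjusted p = 5.1e-05), and *DGAT2* and *DGAT1*, whose enzymes make triglycerides (0.36, SE 0.05, and 0.23, SE 0.04). *ACSL5*, which encodes a long-chain acyl-CoA synthetase, fell from 32.8 to 26.8 CPM (log2 fold change -0.29, SE 0.07, adjusted p = 0.0136).

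The colonocyte and columnar surface list, the nearest in kind to *LGALS4*, *TSPAN8* and the CEACAM genes, had 6 of 20 tested genes higher (30.0%, beside 9.87% of all tested genes) and 0 lower in edgeR. At an unadjusted p under 0.05, 10 were higher and 0 lower, where 15.5% and 15.3% of all tested genes were. DESeq2 gave an adjusted p for 16 of the 20, of which 9 were higher and 0 lower, beside 15.5% and 17.0% of all 14783 genes with such a value. The list's median log2 fold change was 0.21. *GPA33*, a surface antigen of the intestinal epithelium, rose from 22.6 to 32.6 CPM (log2 fold change 0.53, SE 0.07, adjusted p = 2.3e-04). *CDH17*, the gene of the intestinal cadherin, rose from 571 to 773 CPM (0.44, SE 0.02), and *AGR2*, which encodes a disulfide isomerase needed for mucin folding, rose from 1891 to 2427 CPM (0.36, SE 0.02). *TSPAN8* and *LGALS4* changed in the direction of these genes, and *CEACAM5* and *CEACAM6* in the other.

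**Figure D4:**
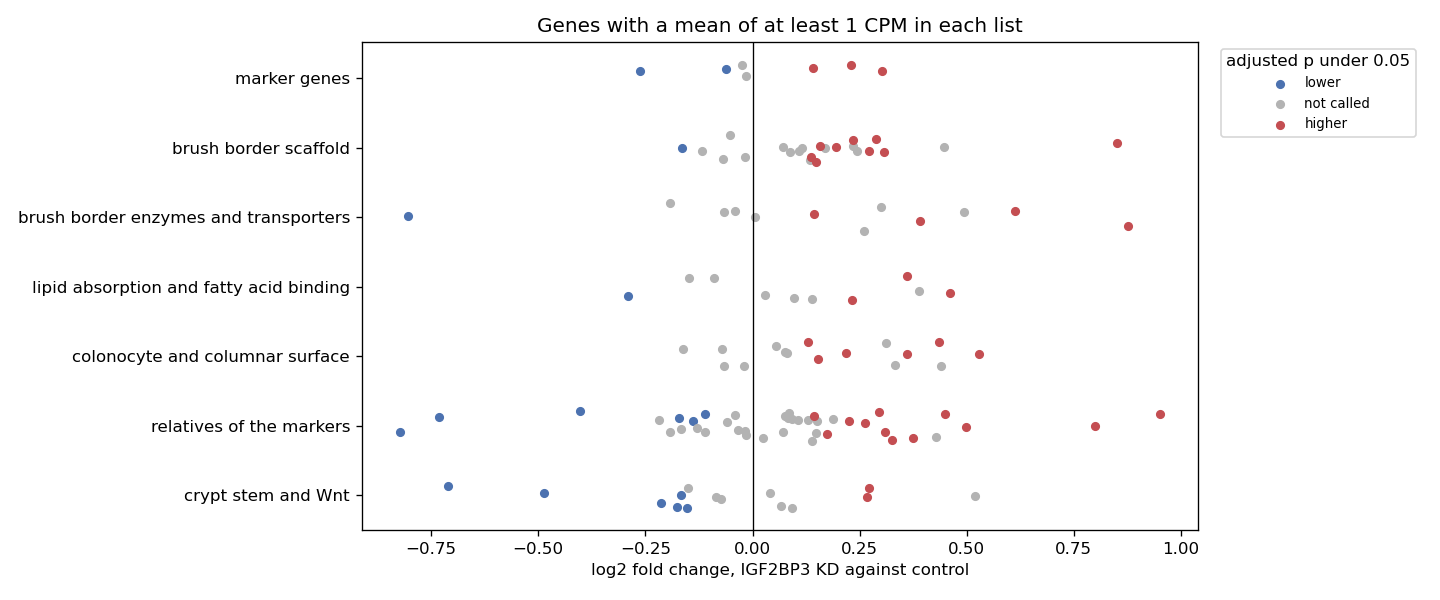
Log2 fold change (x axis) of the genes of each list that averaged 1 CPM or more (y axis, points spread vertically for visibility), colored by call at an adjusted p under 0.05 (blue lower, red higher, grey not called). Red points outnumber blue ones in the brush border, lipid, surface and relatives lists, and blue ones outnumber red in the crypt list.

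Of 60 relatives of the markers by gene family, 48 were tested, 12 were higher (25.0%, beside 9.87% of all tested genes) and 6 lower (12.5%, near the overall 10.6%), and the list had a median log2 fold change of 0.09. The lower genes numbered 2 without control replicate 2, control replicate 3, IGF2BP3 KD replicate 2 or IGF2BP3 KD replicate 3, and 3 without IGF2BP3 KD replicate 1. The tetraspanins, the family of *TSPAN8*, held 7 of the higher genes among 17 tested, with *TSPAN12* the largest rise (0.50, SE 0.09, adjusted p = 0.00164), and 1 lower gene, *TSPAN14*. Of the 9 galectins tested beside *LGALS4*, 2 were higher. *LGALS9* was the smaller change, and *LGALS1*, which encodes galectin-1, rose from 17.0 to 32.8 CPM (log2 fold change 0.95, SE 0.06, adjusted p = 2.1e-06). In the CEACAM family 4 of 8 relatives were tested, of which 1 was lower, 0 were higher and the others were not called. The lower gene, *CEACAM19*, fell from 5.53 to 3.12 CPM (log2 fold change -0.82, SE 0.16, adjusted p = 0.00298). Of the 7 relatives of villin, all tested, 2 were lower (*GSN* and *FLII*) and 1 was higher (*SCIN*). *GSN*, the gene of the actin-severing protein gelsolin, fell from 67.4 to 40.6 CPM (log2 fold change -0.73, SE 0.06). Of the 9 peptidases tested beside *ANPEP* and *DPP4*, 2 were lower, *DPP3* and *ERAP1*, an aminopeptidase gene of antigen processing (-0.40, SE 0.11, adjusted p = 0.0216). Both olfactomedin genes that were tested were higher, *OLFM1* and *OLFM2*, the latter at 2.04 and 3.55 CPM (0.80, SE 0.20, adjusted p = 0.0136).

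The crypt list holds stem cell and Wnt target genes, the compartment that *OLFM4* marks in the intestine. Of its 16 tested genes, 6 were lower (37.5%, beside 10.6% of all tested genes) and 2 were higher (12.5%, beside 9.87%), and the median change was -0.08 on the log2 scale. The lower genes numbered 3 without IGF2BP3 KD replicate 1, and the higher genes 1 in every fit that left out a library other than control replicate 2. *LRIG1*, which encodes a negative regulator of ERBB receptors, fell from 22.2 to 13.6 CPM (log2 fold change -0.71, SE 0.07, adjusted p = 4.3e-05). *NOTUM*, whose product inactivates Wnt ligands, fell from 180 to 128 CPM (-0.49, SE 0.05), and *CDCA7*, a gene of chromatin and the cell cycle, fell by 0.21 on the log2 scale (SE 0.05). The higher genes were *TNFRSF19*, a receptor gene under Wnt control, and *ASCL2*, a transcription factor gene of crypt stem cells, each with a log2 fold change of 0.27 (SE 0.06 and 0.08, adjusted p = 0.0080 and 0.0354). *OLFM4*, at 0.292 CPM or less in every library but IGF2BP3 KD replicate 1, was too low to be read beside them.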

How the data were processed

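The sources credit the authors' processing to fastp, HISAT2 and featureCounts on hg38, named in the submitters' processing notes. Tool versions, the annotation release, the strand setting and the treatment of reads with several matches are not given in the sources used here. The deposited values are raw counts per gene, without normalization. The table has 60612 entries, of which 132 repeat 44 of the identifiers; the first entry of each was kept.

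Counts were tested in all 6 libraries (3 control, 3 IGF2BP3 KD) with edgeR 4.0.16 in R 4.3.3, using TMM scaling (factors 0.992 to 1.01), filterByExpr (minimum count 10, minimum total 15), glmQLFit and glmQLFTest without covariates, and Benjamini-Hochberg adjustment over 19778 genes. The common biological coefficient of variation was 0.148, and total counts of 53453621 to 70026203 set the counting precision. DESeq2 1.42.0, other scalings, filters, thresholds, a replicate block and leaving out each library were alternatives. Group values are means with SD, and an exact permutation test was used for a single ratio.

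All 10 markers are described, and *IGF2BP3* as the check of the knockdown. From each list, the text names called genes averaging 1 CPM or more, up to 3 with the largest rise and 3 with the largest fall, and other called genes only where a count was 5 or fewer, after their values were seen. The overlapping genes *USP37*, *MALSU1* and ENSG00000267881, the test of *CDX2*, the count ratio of the CEACAM genes and the words in 3′ UTRs were added with values in view. The markers, the lists and the words in 3′ UTRs were chosen with earlier results of these data known, so no list and no word is independent evidence. Positions and transcript lengths come from GENCODE v44 on hg38. Promoters come from RefSeq (GRCh38.p14), which matched 8 of the 10 markers, with 10 windows of 250 bases before a start. Besides CACGTG and GTTAAT, both strands were searched for TATAAA (in 10.7% of promoters), GGGCGG (42.6%) and TTTATG (9.64%).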

Additional observations from a re-analysis of the deposited data

How the results depend on the processing

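The called direction of *CEACAM5*, *LGALS4* and *TSPAN8* and their side of the threshold held in all 11 alternatives for each. *CEACAM6* lost its call in 6 and *PHGR1* in 7 of 11, in the same direction. Libraries with the same replicate number did not deviate together from their group means (correlations -0.00173, -0.0315 and 0.00915), and not every library correlated best with its own number. The replicate block, which rests only on these numbers, gave *CEACAM6* an adjusted p of 0.0842, leaving 1 marker lower, and 1 crypt gene higher. Among uncalled markers the sign turned for *ANPEP* (0.044 without control replicate 1, lowest -0.64), *DPP4* (0.02 without control replicate 3 and 0.086 without IGF2BP3 KD replicate 2, lowest -0.14) and *OLFM4* (-0.45 without IGF2BP3 KD replicate 1, highest 0.57). Without a filter on low counts, 1 marker, 1 brush border enzyme or transporter and 3 relatives were lower and 1 crypt gene was higher. DESeq2 called 2 scaffold genes lower. At an adjusted p under 0.01, 1314 tested genes were lower and 1098 higher, with 1 marker, 0 scaffold genes, 1 enzyme or transporter, 0 lipid genes, 2 relatives and 3 crypt genes lower and 1 crypt gene higher. Leaving out 1 library gave 1641 to 1970 tested genes lower and 1414 to 1741 higher. In the same fits the lists had, lower and then higher, 1 to 2 and 2 to 3 markers, 0 to 1 and 7 to 9 scaffold genes, 1 to 2 and 3 to 6 enzymes or transporters, 0 to 1 and 3 lipid genes, 0 and 6 to 9 surface genes, 2 to 8 and 11 to 13 relatives, and 3 to 6 and 1 to 2 crypt genes. The cause of these shifts was not tested. Requiring 10 counts in every library gave no value for *ANPEP* and *OLFM4*. For *ANPEP* and *OLFM4*, counting error alone was 24.0% to 28.5% of the level per library.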
